A study of Rattus norvegicus with 6 samples.

Results

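The nuclear genes for the subunits of the oxidative phosphorylation complexes were examined in cultured rat mesenchymal stem cells (MSC) of 2 origins. Members were chosen by gene symbol alone: every row of the gene table was taken whose symbol has the form of a complex I subunit (Nduf a, b, c, s or v), a succinate dehydrogenase subunit (Sdha to Sdhd), a complex III subunit (Uqcr), a nuclear cytochrome c oxidase subunit (Cox4 to Cox8) or an ATP synthase subunit (Atp5). That gave 83 of 30498 rows, with 77 distinct symbols. No count entered this choice, but the family was singled out with earlier results of the same data known, so the counts of members called below are a description of these rows. By complex, 37 rows belong to complex I, 4 to complex II, 8 to complex III, 17 to complex IV (Ndufa4 and Ndufa4l2, which belong with that complex, among them) and 17 to complex V.

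Both groups are wild-type Rattus norvegicus MSC. The group rcMSC was taken from cranial bone marrow and rbMSC from the marrow of the femur and tibia, with 3 libraries each. No treatment, age, sex or passage is given in the labels for either group, and they do not say whether libraries of 1 group stem from different animals or cultures. The p-values therefore reflect library-to-library spread alone, which could be technical. Total RNA was sequenced as paired reads, and the authors deposited raw gene counts, with totals of 21340290 to 26928079 per library.

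Oxidative phosphorylation is carried out in the inner mitochondrial membrane. Complexes I and II pass electrons from NADH and succinate to ubiquinone, complex III passes them on to cytochrome c, complex IV reduces oxygen, and complexes I, III and IV pump the protons whose return through complex V drives ATP synthesis. Each complex has catalytic core subunits and, except complex II, many small accessory subunits that are needed for assembly and stability. Several complex IV subunits have isoforms used in muscle, lung, testis or under low oxygen. MSC in culture rely largely on glycolysis, and mitochondrial respiration is known to increase when they differentiate. The subunits encoded by mitochondrial DNA were not analysed here.

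Across the family, 37 subunit rows were higher in rcMSC, all but Atp5me by less than 2-fold, and 2 isoforms linked to low oxygen were lower. Of the 77 rows with enough counts for the test (edgeR's quasi-likelihood test, adjusted p under 0.05 over 14836 genes), the higher rows made up 48.1%, and 38 were not called. Over all genes tested 45.8% were called, 22.6% higher and 23.2% lower. The median log2 fold change of rcMSC over rbMSC was 0.34 over the members and 0.02 over all genes, and 71 of the 77 members had a positive value. Only 1 member, Atp5me, had a fitted change of at least 2-fold upward, and 18 had one of at least 1.5-fold. All 3 rcMSC libraries lay above all 3 rbMSC libraries for 41 members and below them for 2, against 28.3% and 28.8% of all genes. The 2 lower members were Cox4i2 and Ndufa4l2.

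The rcMSC libraries were not alike. In rcMSC replicate 3 most subunit genes were at lower levels than in the other 2 rcMSC libraries. It was the lowest of the 3 rcMSC libraries for 64 of the 77 members (83.1%) but for 41.7% of all genes. The median log2 deviation of the members from the rbMSC mean was 0.36 and 0.45 in rcMSC replicates 1 and 2 and 0.12 in replicate 3, while the rbMSC libraries had -0.0298, -0.0022 and 0.0368. Replicate 3 lay inside the rbMSC range for 24 members and above it for 43, whereas replicates 1 and 2 were both above that range for 65. Replicate 3 stood apart across the transcriptome too: the chi-square per degree of freedom against rcMSC replicates 1 and 2 was 42.8 and 42.0, against 2.69 to 3.16 for the other pairs within a group. With replicate 3 left out, 58 members were higher, 2 were lower and the median log2 fold change was 0.46, with 29.9% of all genes higher and 30.2% lower. All 37 genes higher in the full comparison were among the 58.

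**Figure D1:**
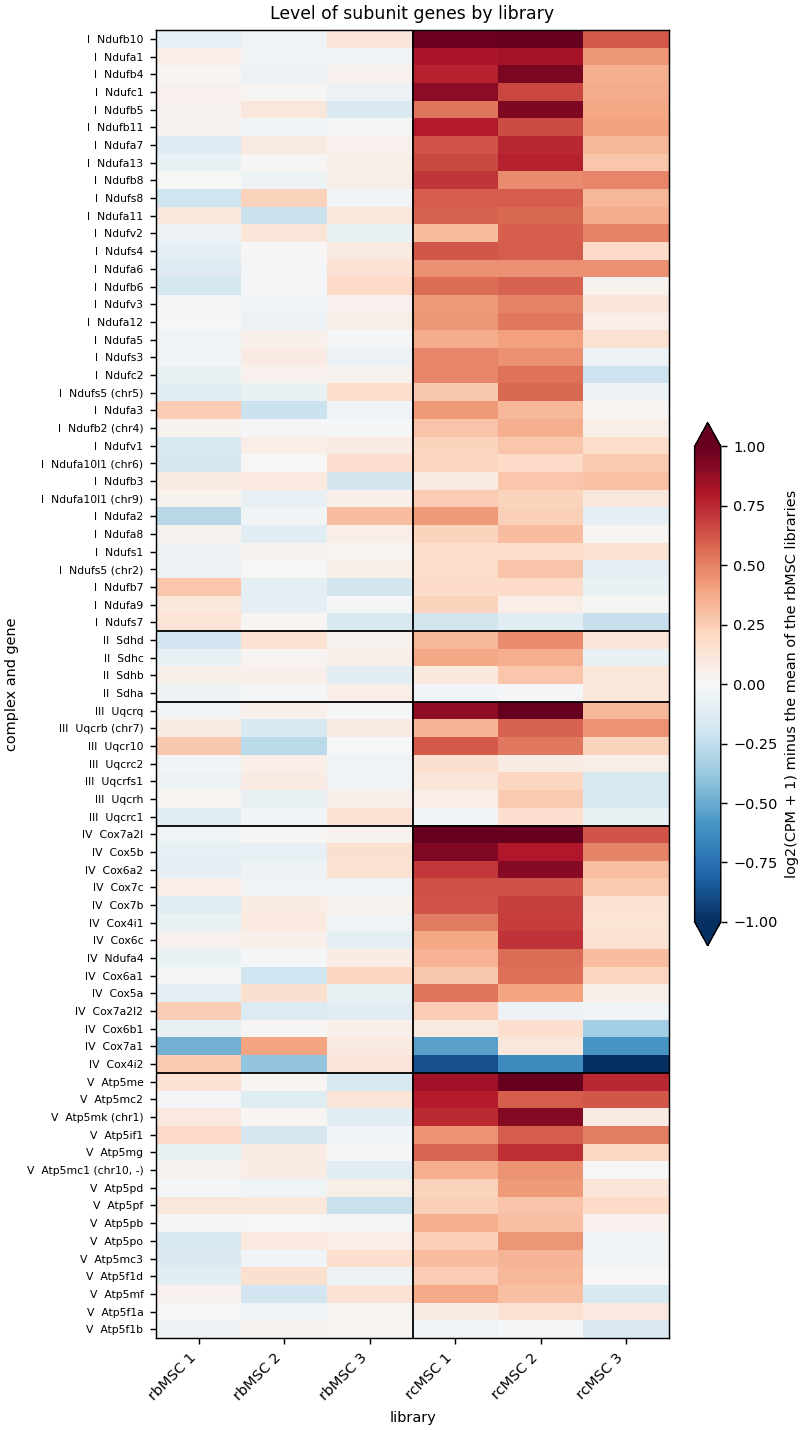
Level of subunit genes (rows, by complex) in each of the 6 libraries (columns), as log2(CPM + 1), where CPM are counts scaled for library size, minus the mean of the rbMSC libraries, with colours saturating at 1 log2 unit and genes below a mean of 1 CPM left out. The columns of rcMSC 1 and rcMSC 2 are red for most genes, with medians over the members of 0.36 and 0.45, while the column of rcMSC 3 is paler, with a median of 0.12.

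Subunit genes are short, and fold changes varied with gene length across the transcriptome. The median summed exon length was 1309 nt over the members tested and 2960 nt over all genes tested. Among all genes the median log2 fold change fell from 0.29 in the shortest decile (55 to 1087 nt) to -0.14 in the longest. In that shortest decile 33.0% of the 1486 genes were higher, against 17 of the 33 members in it (51.5%). In the next 2 deciles (1088 to 2063 nt) the shares were 25.4% of all genes and 11 of 28 members (39.3%), and above those lengths they were 20.3% of all genes and 9 of 16 members (56.2%). In all, 60 of the 77 members had a larger value than the median gene of their own length decile, by a median of 0.19. With the trend with length removed from every library, 27 members were higher and 4 lower and the members' median was 0.17, against 23.3% of all genes higher and 22.0% lower. Of the 37 genes higher before, 26 were still called. The 4 lower ones were Cox4i2, Ndufa4l2, Cox6b1 (log2 fold change -0.38, adjusted p = 0.0126) and Atp5f1b (-0.16, adjusted p = 0.025).

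**Figure D2:**
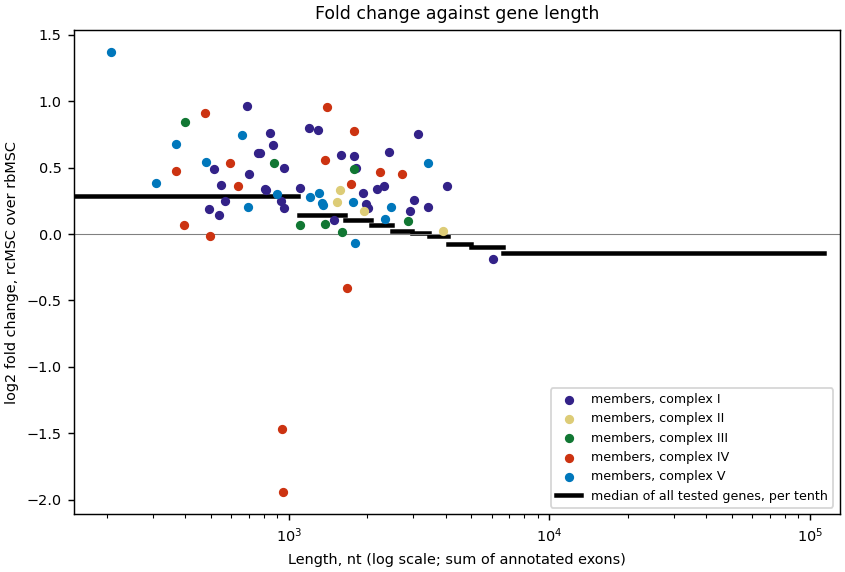
Log2 fold change of rcMSC over rbMSC for each tested subunit gene (points, coloured by complex) against its summed exon length in nt on a log scale, with the median of all genes tested drawn for each decile of length (black bars). The black bars fall from 0.29 to -0.14, and 60 of the 77 points lie above the bar of their decile.

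Promoter sequences of the members were searched for motifs of known regulators, whatever the calls of the genes. The genes shown are the largest riser of each complex that had a called riser, with the lower isoform Ndufa4l2. Each sequence runs from 250 bases before to 50 after the RefSeq start on the GRCr8 build, and capitals mark motifs found by letter search on both strands. For the nuclear respiratory factor 1 (NRF1) site the motifs were TGCGCA, called its core here, and a longer stretch, GCATGCGC. The others were CCGGAAG for the ETS family with GABPA, AAGATGG for YY1, AAGGTCA for the core of the estrogen-related receptor site, and ACGTG, the hypoxia response core. GCATGCGC shares the letters TGCGC with the core but does not contain TGCGCA.
Ndufb10: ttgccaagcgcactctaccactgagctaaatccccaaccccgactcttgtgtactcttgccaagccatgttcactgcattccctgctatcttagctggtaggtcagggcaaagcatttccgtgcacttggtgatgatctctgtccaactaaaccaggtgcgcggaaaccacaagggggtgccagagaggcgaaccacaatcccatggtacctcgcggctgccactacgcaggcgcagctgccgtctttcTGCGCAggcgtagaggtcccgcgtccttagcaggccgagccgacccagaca
Uqcrq: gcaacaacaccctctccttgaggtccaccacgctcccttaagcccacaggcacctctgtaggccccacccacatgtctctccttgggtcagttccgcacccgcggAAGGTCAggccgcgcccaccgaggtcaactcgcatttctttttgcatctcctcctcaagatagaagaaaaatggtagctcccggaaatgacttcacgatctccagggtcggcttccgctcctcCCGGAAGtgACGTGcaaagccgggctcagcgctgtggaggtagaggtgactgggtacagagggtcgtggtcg
Cox7a2l: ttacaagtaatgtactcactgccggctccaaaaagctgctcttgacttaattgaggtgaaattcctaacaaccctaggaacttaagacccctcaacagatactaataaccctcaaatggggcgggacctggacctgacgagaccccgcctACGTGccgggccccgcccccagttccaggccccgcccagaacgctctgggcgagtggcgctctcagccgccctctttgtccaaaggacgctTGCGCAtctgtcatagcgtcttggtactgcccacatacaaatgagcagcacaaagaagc
Atp5me: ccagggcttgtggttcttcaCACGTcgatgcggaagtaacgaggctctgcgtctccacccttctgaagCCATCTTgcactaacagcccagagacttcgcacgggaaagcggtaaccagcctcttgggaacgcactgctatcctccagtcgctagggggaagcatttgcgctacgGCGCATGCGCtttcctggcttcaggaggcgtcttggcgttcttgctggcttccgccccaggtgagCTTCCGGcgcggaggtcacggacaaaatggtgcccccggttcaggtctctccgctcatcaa
Ndufa4l2: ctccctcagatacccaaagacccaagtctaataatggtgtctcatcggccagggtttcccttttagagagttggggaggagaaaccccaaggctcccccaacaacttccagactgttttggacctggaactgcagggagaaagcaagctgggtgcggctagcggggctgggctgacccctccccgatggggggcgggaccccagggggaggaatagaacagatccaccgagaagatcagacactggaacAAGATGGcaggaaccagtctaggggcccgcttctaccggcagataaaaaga
These lie at chromosome 10 from 14255917 to 14256216 on the minus strand (Ndufb10), chromosome 10 from 38089929 to 38090228 on the minus strand (Uqcrq), chromosome 6 from 16936324 to 16936623 on the plus strand (Cox7a2l), chromosome 14 from 1464610 to 1464909 on the plus strand (Atp5me) and chromosome 7 from 65241919 to 65242218 on the plus strand (Ndufa4l2). Ndufb10 and Cox7a2l carry the core TGCGCA next to the start, and Cox7a2l also carries the hypoxia response core. Uqcrq carries the receptor core, the ETS motif and the hypoxia response core. Atp5me carries GCATGCGC on both strands, a YY1 match, an ETS match and the hypoxia response core. The Ndufa4l2 window holds the YY1 letters AAGATGG at -1 and no other of these motifs. The ATG within that match is followed by codons without a stop up to the end of the window. The match may therefore be the start of the coding sequence, and the RefSeq start used may miss the promoter. Whether this window holds the promoter of Ndufa4l2 was not tested. Its YY1 match and its lack of the hypoxia response core describe the window only.

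Of the 77 member symbols, 69 matched the RefSeq promoter table, and those without an entry included Uqcrb, Ndufa8, Cox4i2, Ndufa10l1, Cox6c, Atp5pd and Cox6a1. The NRF1 core was found in 21 of the 69 promoters (30.4%), in 12.8% of the 11167 promoters of genes tested and in 7.24% of all 33469 promoters. The same 3 shares for GCATGCGC were 13.0%, 4.90% and 2.47%, for the ETS motif 27.5%, 16.7% and 8.75%, for YY1 26.1%, 7.68% and 7.01%, and for the receptor core 13.0%, 3.12% and 4.61%. At least 1 of the NRF1 core, ETS and YY1 motifs was found in 46 members (66.7%), against 33.3% of the promoters of tested genes. ACGTG was found in 24.6% of the members and 24.5% of the tested genes. Median GC content was 56.0% in the members and 60.7% in the tested genes. Among tested members with a motif, the higher ones were 13 of 20 for the NRF1 core, 5 of 8 for GCATGCGC and 11 of 19 for ETS. They were 5 of 17 for YY1, 3 of 8 for the receptor core and 9 of 16 for ACGTG, against 48.1% of all members tested. A link between motif and change was not tested. These matches describe the letters of a window, not binding.

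Complex I takes electrons from NADH, and its members were mostly higher in rcMSC. Of 35 rows tested, 19 were higher (54.3%) and 0 lower, against 22.6% and 23.2% of all genes. Their median log2 fold change was 0.36. No row was lower either at an unadjusted p under 0.05 or by DESeq2, and of the 35 only Ndufs7, a core iron-sulfur subunit, had a negative value (-0.19, adjusted p = 0.166). The calls were among 16 of 28 accessory rows (median 0.37) and 3 of the 7 core rows (0.23). Without rcMSC replicate 3, 28 of the rows were higher, and with the length trend removed 17 (median 0.23). Over all genes the shares higher in these 2 fits were 29.9% and 23.3%. The median length was 945.5 nt over the accessory rows and 1981 nt over the core rows. With the length trend removed their medians were 0.27 and 0.16.

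Ndufb10, an accessory subunit of the membrane arm (mRatBN7.2, chromosome 10, 13749275 to 13751442, 4 exons), had 16.1, 16.6 and 18.7 CPM in the rbMSC libraries and 34.6, 39.1 and 26.7 CPM in the rcMSC libraries, each in replicate order. The groups did not overlap, and rcMSC replicate 3 was the lowest of its group. Its log2 fold change was 0.97 ± 0.13 (SE), with an adjusted p of 0.000297 by edgeR, and 1.10 without rcMSC replicate 3. Ndufa1, a small X-linked accessory subunit needed for assembly (chromosome X, 116424223 to 116428633), had 7.81, 7.23 and 7.25 CPM in rbMSC and 13.9, 14.0 and 10.4 CPM in rcMSC. It rose by 0.78 ± 0.14, adjusted p = 0.00109, but its exons overlap those of Rnf113a1 on the other strand over 73.0% of its length, and the strand setting of the counting is not given in the sources used here. Ndufb5, another membrane-arm accessory subunit, had 3.09, 3.33 and 2.61 CPM in rbMSC against 4.81, 6.63 and 4.24 CPM in rcMSC, without overlap (0.80 ± 0.20, adjusted p = 0.00925).

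Ndufa12, an accessory subunit of the matrix arm, had the highest level per length of complex I, 57.8 ± 2.39 CPM per kb (SD, n = 3) in rbMSC and 74.5 in rcMSC. Its libraries had 31.7, 30.4 and 33.0 CPM in rbMSC and 43.4, 46.0 and 33.3 CPM in rcMSC, so that rcMSC replicate 3 barely cleared the rbMSC range. Its log2 fold change of 0.37 ± 0.11 (adjusted p = 0.0224) passed in the full set of libraries but not when any library other than rcMSC replicate 3 was left out (adjusted p up to 0.0912), nor with the length trend removed (0.01).

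The core subunits carry the flavin and the iron-sulfur clusters, and their difference from the accessory rows was not tested. Ndufs1, the largest of them, had 48.6, 51.9 and 51.2 CPM in rbMSC and 57.7, 57.4 and 55.9 CPM in rcMSC, which did not overlap (0.17 ± 0.06, adjusted p = 0.0399). Its call was lost when any library other than rcMSC replicate 3 was left out, with an adjusted p up to 0.153. Ndufv2, an iron-sulfur subunit, had 14.8, 16.8 and 14.7 CPM in rbMSC and 19.4, 23.9 and 22.2 CPM in rcMSC (0.50 ± 0.10, adjusted p = 0.00291). Here rcMSC replicate 3 was not the lowest of its group. With the length trend removed its adjusted p was 0.0833. Ndufs8, which holds iron-sulfur clusters, rose by 0.59 ± 0.16 (adjusted p = 0.013), a call lost without rbMSC replicate 1 or rbMSC replicate 3 (up to 0.0594).

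Other core members were not called with all 6 libraries. Ndufv1, the subunit that binds NADH, had a log2 fold change of 0.23 ± 0.09 (adjusted p = 0.057), with 18.8, 22.0 and 22.2 CPM in rbMSC and 24.6, 25.5 and 23.8 CPM in rcMSC. Ndufs3, a core subunit of the matrix arm, had 0.35 ± 0.15 (0.0919). Both passed without rcMSC replicate 3, with adjusted p of 0.00835 and 5.66e-05. The 35 rows of complex I thus ranged from -0.19 for Ndufs7 to 0.97 for Ndufb10.

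Summed over its accessory rows, complex I had 4.62, 4.08 and 4.69 times the level per length of its core rows in rbMSC. In rcMSC the ratio was 5.39, 5.23 and 4.52, so replicates 1 and 2 lay above the rbMSC libraries and replicate 3 inside their range.

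**Figure D3:**
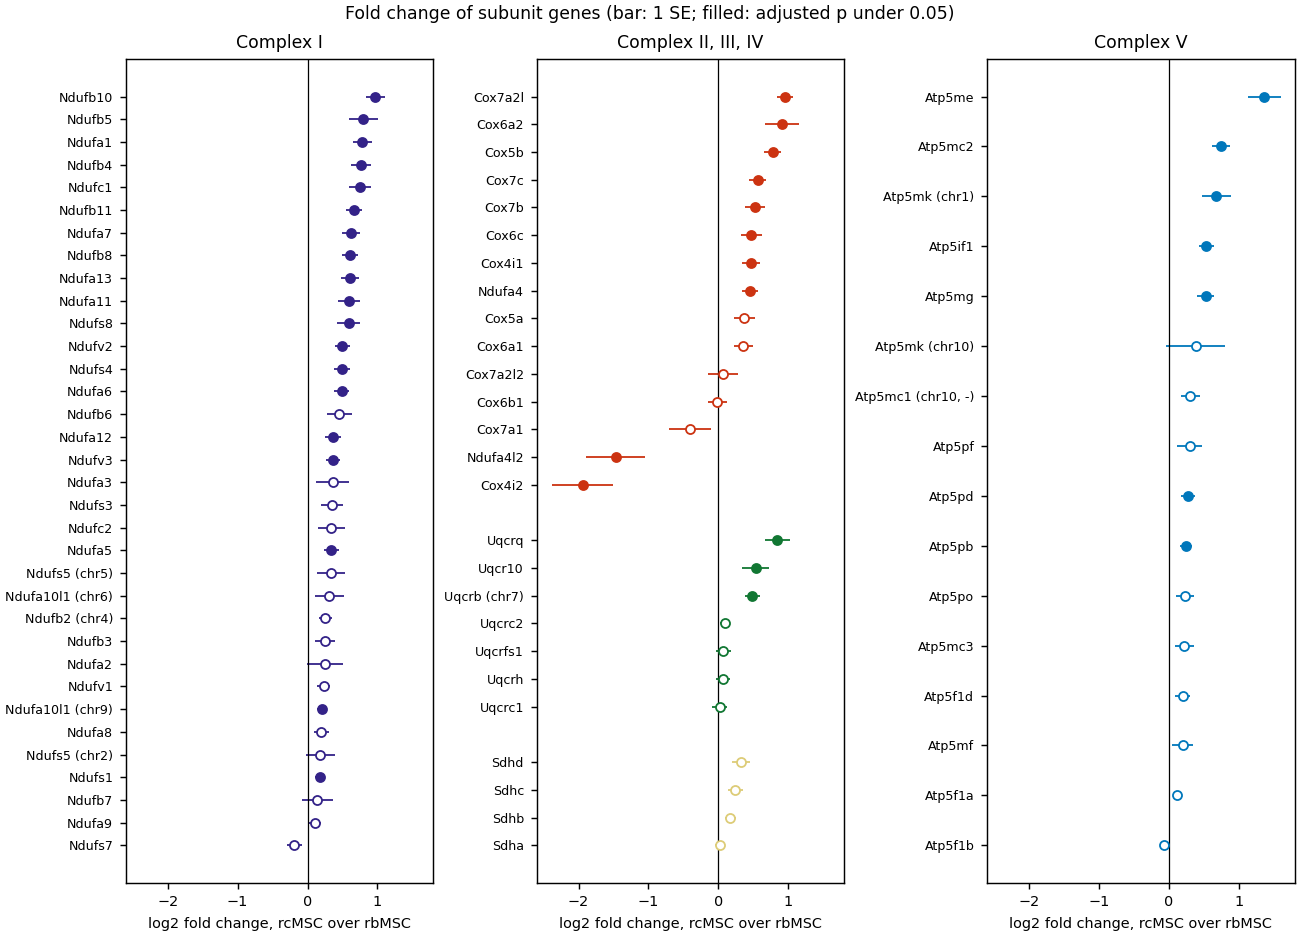
Log2 fold change of rcMSC over rbMSC (x axis) for tested subunit genes, grouped by complex, with bars of 1 SE and filled points for genes with an adjusted p under 0.05 by edgeR. Most points lie to the right of 0, and Cox4i2 and Ndufa4l2 lie at -1.94 and -1.47.

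Complex II, which is also the succinate dehydrogenase of the citric acid cycle, had 0 of 4 members called by edgeR at the adjusted threshold, and 3 of them passed without rcMSC replicate 3. At an unadjusted p under 0.05 the count was 1, and DESeq2 called 0. Sdhc, a membrane anchor with the highest level per length of the complex (63.5 ± 2.98 CPM per kb in rbMSC, SD, n = 3), had 91.7, 98.8 and 100.2 CPM in rbMSC and 126.6, 124.6 and 92.7 CPM in rcMSC. Its replicate 3 of rcMSC fell within the rbMSC range, and the log2 fold change was 0.24 ± 0.11 (adjusted p = 0.103), or 0.37 (8.36e-10) without that library. Sdha, the flavoprotein with the catalytic site, had 62.3, 63.5 and 67.6 CPM in rbMSC and 63.3, 64.0 and 69.2 CPM in rcMSC (0.02 ± 0.06, adjusted p = 0.794, and -0.02 without rcMSC replicate 3). Its groups overlapped almost fully, also in rcMSC replicates 1 and 2. Sdhb, the iron-sulfur subunit, had 0.17 ± 0.08 (0.12), and 0.0202 was its adjusted p without rcMSC replicate 3.

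In complex III, 3 small subunits were higher, and the small subunit Uqcrh (0.07, adjusted p = 0.63) and the core subunits were not called. Of 7 rows tested, these 3 were higher (42.9%) and 0 lower by edgeR, against 22.6% and 23.2% of all genes. None was lower at an unadjusted p under 0.05 or by DESeq2, and the median log2 fold change was 0.10. Uqcrq, a small subunit bound to cytochrome b (chromosome 10, 37586888 to 37589169, 3 exons, 400 nt), had 16.8, 18.0 and 17.1 CPM in rbMSC and 32.8, 38.2 and 22.0 CPM in rcMSC. The 3 rbMSC libraries agreed closely, and the rcMSC libraries were all above them but spread widely. Its log2 fold change was 0.84 ± 0.18 (adjusted p = 0.00548), and it also had the highest level per length of the complex, 43.3 ± 1.51 CPM per kb in rbMSC (SD, n = 3) and 77.5 in rcMSC. Uqcrb on chromosome 7, a subunit of the ubiquinone-binding region, had 13.8, 11.7 and 13.9 CPM in rbMSC and 16.8, 20.2 and 18.2 CPM in rcMSC, without overlap (0.49 ± 0.11, adjusted p = 0.0044).

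Uqcr10, a further small subunit, overlapped between groups, with 5.66, 3.59 and 4.52 CPM in rbMSC and 7.47, 6.96 and 5.44 CPM in rcMSC. Its log2 fold change of 0.53 ± 0.19 (adjusted p = 0.0427) was no longer called without replicate 2 or 3 of rbMSC or replicate 1 or 2 of rcMSC (adjusted p up to 0.162). Among the core subunits, Uqcrfs1, the Rieske iron-sulfur protein, had 29.5, 32.4 and 29.9 CPM in rbMSC and 33.6, 35.7 and 27.2 CPM in rcMSC, which overlap. Uqcrc1 (0.02 ± 0.10, adjusted p = 0.905) and Uqcrc2 (0.10 ± 0.07, 0.261), the large matrix proteins, were also not called. Without rcMSC replicate 3, Uqcrfs1 passed (0.18, 0.0274) and Uqcrc1 and Uqcrc2 did not.

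Complex IV held both the called risers of widely used subunits and the 2 fallers. Of 15 rows tested, 8 were higher (53.3%) and 2 lower, against 22.6% and 23.2% of all genes. Their median log2 fold change was 0.45, and without rbMSC replicate 1 the higher count was 4. With the length trend removed 5 were higher and 3 lower, with a median of 0.18, against 23.3% and 22.0% of all genes. Cox7a2l, a relative of the Cox7a subunits known for joining complexes III and IV into supercomplexes (chromosome 6, 11184285 to 11198273, 7 exons, 1399 nt), had 32.0, 33.3 and 33.9 CPM in rbMSC and 70.0, 70.7 and 51.6 CPM in rcMSC. The rbMSC values were tight and every rcMSC library was well above them. It rose by 0.96 ± 0.11 (adjusted p = 0.000111), by 1.09 without rcMSC replicate 3 and by 0.82 with the length trend removed. Cox5b, a subunit on the matrix side, had 18.0, 18.0 and 21.5 CPM in rbMSC and 37.1, 34.0 and 27.4 CPM in rcMSC (0.78 ± 0.12, adjusted p = 0.000555). Cox5a, another matrix-side subunit, had 8.94, 10.9 and 9.07 CPM in rbMSC and 14.4, 12.9 and 10.04 CPM in rcMSC, which overlap (0.37 ± 0.15, adjusted p = 0.0608).

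The isoforms of subunit 4 went opposite ways. Cox4i1, the isoform of most tissues (chromosome 19, 48721199 to 48727921), had 68.1, 76.6 and 69.6 CPM in rbMSC and 102.4, 116.0 and 78.3 CPM in rcMSC. No library overlapped, and rcMSC replicate 3 was just above the highest rbMSC value. The rise of 0.47 ± 0.13 (adjusted p = 0.0168) was not called without replicate 1 or 3 of rbMSC or replicate 1 of rcMSC (adjusted p up to 0.0572). Cox4i2, the isoform known from lung and from low oxygen (chromosome 3, 141228443 to 141239331, 6 exons), had 2.01, 0.91 and 1.74 CPM in rbMSC and 0.36, 0.63 and 0.20 CPM in rcMSC. All rcMSC values were below all rbMSC values, and the log2 fold change was -1.94 ± 0.44 (adjusted p = 0.00489), called in each comparison that left out 1 library. Per length, Cox4i2 made up 6.53%, 2.73% and 5.59% of the Cox4 transcripts in rbMSC and 0.83%, 1.26% and 0.60% in rcMSC.

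Ndufa4, a complex IV subunit once assigned to complex I, and its paralog Ndufa4l2, induced by low oxygen in other cells, showed the same opposition. Ndufa4 had 7.95, 8.26 and 8.87 CPM in rbMSC and 10.9, 12.8 and 10.6 CPM in rcMSC (0.45 ± 0.12, adjusted p = 0.0102). Exons of Ndufa4 (1497 counts in all) overlap those of Phf14 (15978 counts) on the other strand over 8.03% of the length of Ndufa4. Ndufa4l2 (chromosome 7, 63356883 to 63359010) had 0.84, 0.78 and 1.11 CPM in rbMSC and 0.15, 0.48 and 0.36 CPM in rcMSC, from 4 to 28 counts per library. These few counts limit the precision, and the fall of -1.47 ± 0.42 (adjusted p = 0.0167) was not called without rbMSC replicate 3 (0.0781) or rcMSC replicate 1 (0.0594). Exons of Ndufa4l2 (90 counts in all) overlap those of Shmt2 (8666 counts) on the other strand over 5.3% of the length of Ndufa4l2. Its share of the pair per length was 23.4%, 21.3% and 26.5% in rbMSC and 3.71%, 9.71% and 8.91% in rcMSC. The size of this share depends on the summed exon lengths, 943 nt for Ndufa4l2 and 2715 nt for Ndufa4. In rbMSC replicate 1 their raw counts were 18 and 170.

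The isoforms of striated muscle did not move as a group. Cox6a2, the muscle isoform of subunit 6a, had 1.64, 1.73 and 2.14 CPM in rbMSC and 3.61, 4.31 and 2.48 CPM in rcMSC (0.91 ± 0.24, adjusted p = 0.0114). It was not called without rbMSC replicate 1 (0.0524) or with the length trend removed (0.0591). Its share of the Cox6a transcripts was 12.9%, 15.1% and 14.0% in rbMSC and 20.9%, 20.4% and 15.9% in rcMSC, which do not overlap. Cox7a1, the muscle isoform of subunit 7a, had 4.35, 8.78 and 6.93 CPM in rbMSC and 4.12, 7.07 and 3.96 CPM in rcMSC, which overlap (-0.41 ± 0.30, adjusted p = 0.289). Its exons overlap those of Capns1 on the other strand over 32.4% of its length, and the strand setting is not given. Over all libraries Capns1 had 24727 counts and Cox7a1 875. Cox8c, a testis isoform, had no count in any library. Striated muscle markers summed to 17.5 to 19.6 CPM in rbMSC and 8.62 to 14.2 CPM in rcMSC, and of the 7, 4 were tested, of which 1 was higher and 1 lower. Their part in these values was not tested.

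**Figure D4:**
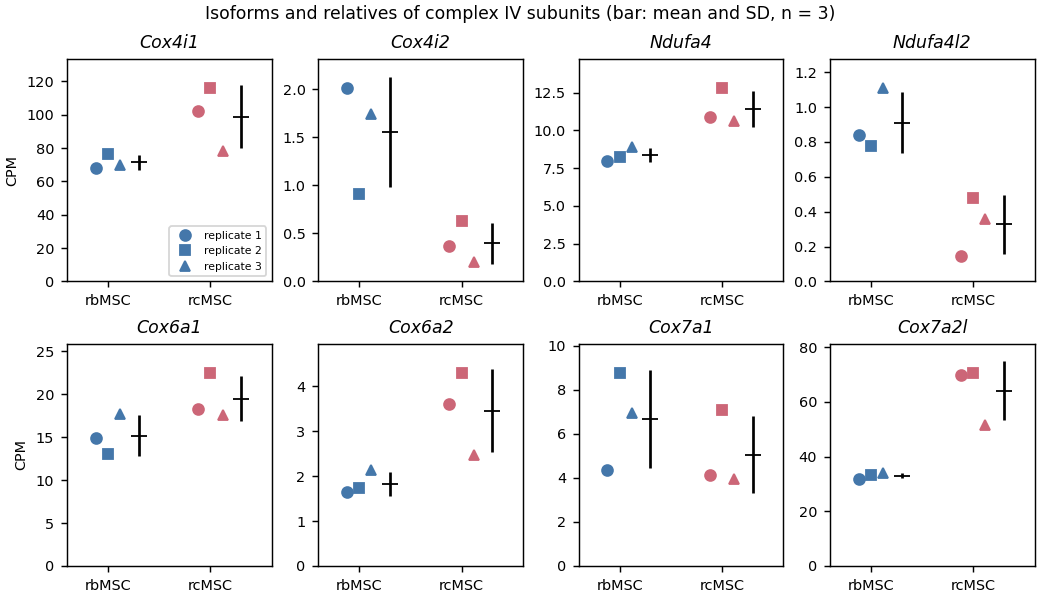
CPM of isoforms and relatives of complex IV subunits in each library (points, shaped by replicate), with the mean and SD of each group (black, n = 3) and axes from 0. Cox4i1 and Ndufa4 are higher in all rcMSC libraries than in any rbMSC library, and Cox4i2 and Ndufa4l2 are lower in all of them.

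Complex V is the ATP synthase. Of 16 rows tested, 7 were higher (43.8%) and 0 lower by edgeR, against 22.6% and 23.2% of all genes. Their median log2 fold change was 0.29, and 0 were lower at an unadjusted p under 0.05 or by DESeq2. Without rcMSC replicate 3, 13 were higher, with 29.9% of all genes higher, and without any other single library 4 were. With the length trend removed 3 were higher and 1 lower (median 0.13). Both are smaller shares than the 23.3% and 22.0% of all genes in that fit. The 3 subunits of the F1 head that were tested had 0 calls by edgeR, 0 at an unadjusted p under 0.05 and 0 by DESeq2, with a median of 0.11, and 3 of 5 accessory subunits of the membrane part were higher, with a median of 0.53. Of the 4 subunits of the peripheral stalk, 2 were called (median 0.26), as was 1 of the 3 c ring rows (0.31). The 2 stalk calls were lost without any library but rcMSC replicate 3, and without that library 2 of the head, 3 of the stalk and 3 of the c ring rows were higher. The median length was 2346 nt over the head rows and 368 nt over the membrane accessory rows. With the length trend removed their median log2 fold changes were 0.07 and 0.34. No test of the difference between these classes was made.

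Atp5f1b, the catalytic beta subunit (chromosome 7, 515460 to 567273), had the highest level of all members per length, 179 ± 5.93 CPM per kb in rbMSC (SD, n = 3) and 171 in rcMSC. Its libraries had 307.7, 327.4 and 324.3 CPM in rbMSC and 312.0, 315.1 and 289.1 CPM in rcMSC, which overlap (-0.07 ± 0.06, adjusted p = 0.375). Atp5f1a, the alpha subunit, had 144.7, 140.5 and 147.3 CPM in rbMSC and 151.9, 160.7 and 154.3 CPM in rcMSC. These did not overlap, but the difference of 0.11 ± 0.05 was not called (adjusted p = 0.118), while without rcMSC replicate 3 it was (0.0172).

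Atp5me, subunit e, which helps ATP synthase to dimerise (chromosome 14, 1319868 to 1321013, 3 exons, 207 nt), had the largest rise of the family on the log2 scale, 1.37 ± 0.23 (adjusted p = 0.000913). Its libraries had 1.40, 1.21 and 0.95 CPM in rbMSC and 2.91, 3.57 and 2.68 CPM in rcMSC, with every rcMSC library well above. Atp5mc2, one of the genes for the same mature c ring peptide, had 6.503, 5.97 and 7.29 CPM in rbMSC and 12.1, 10.5 and 10.6 CPM in rcMSC (0.75 ± 0.12, adjusted p = 0.000755). Its share of the c ring transcripts per length was 37.5%, 34.0% and 38.5% in rbMSC and 46.0%, 41.6% and 49.3% in rcMSC, without overlap. Atp5mk on chromosome 1, a small membrane subunit, had 9.92, 9.35 and 8.48 CPM in rbMSC and 16.1, 18.3 and 9.84 CPM in rcMSC (0.68 ± 0.21, adjusted p = 0.0244), with rcMSC replicate 3 inside the rbMSC range. This call was lost without any library but rcMSC replicate 3 (up to 0.0852) and with the length trend removed (0.125).

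Atp5if1, the inhibitor that blocks the enzyme when it would run backwards, had 23.6, 18.2 and 20.2 CPM in rbMSC and 28.4, 31.9 and 29.8 CPM in rcMSC. The groups did not overlap and rcMSC replicate 3 was not the lowest of its group (0.54 ± 0.10, adjusted p = 0.00171), but with the length trend removed the call was lost (0.19, adjusted p = 0.17).

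Summed per length over its members, complex I had 384.8, 390.6 and 407.5 CPM per kb in rbMSC and 565.2, 587.2 and 460.3 CPM per kb in rcMSC, a log2 ratio of the means of 0.45. Complex IV had 208.2, 214.9 and 218.7 CPM per kb in rbMSC and 308.1, 335.7 and 238.6 CPM per kb in rcMSC (0.46), and complex III 130.2, 131.7 and 133.5 against 180.7, 201.9 and 142.0 CPM per kb (0.41). In these 3 complexes every rcMSC library was above every rbMSC library, and rcMSC replicate 3 was the nearest to them. The difference in complex III lay largely in the 400 nt gene Uqcrq. Its mean went from 43.3 CPM per kb in rbMSC to 77.5 in rcMSC, while the sum of the complex went from 131.8 to 174.9. Without length scaling the log2 ratio was 0.23 for complex III, 0.38 for complex I and 0.52 for complex IV. The median log2 fold change of the complex III rows was 0.10. Complex V had 464.0, 463.4 and 469.8 CPM per kb in rbMSC and 557.8, 585.1 and 490.0 CPM per kb in rcMSC (0.23), but its groups overlapped without length scaling or without the TMM factors. Complex II overlapped in each scaling, with 96.9, 103.7 and 103.4 against 123.7, 125.5 and 101.6 CPM per kb (0.21). As a share of all counts in a library, the members had 0.181%, 0.188% and 0.189% in rbMSC and 0.238%, 0.247% and 0.189% in rcMSC, so that rcMSC replicate 3 matched rbMSC replicate 3.

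**Figure D5:**
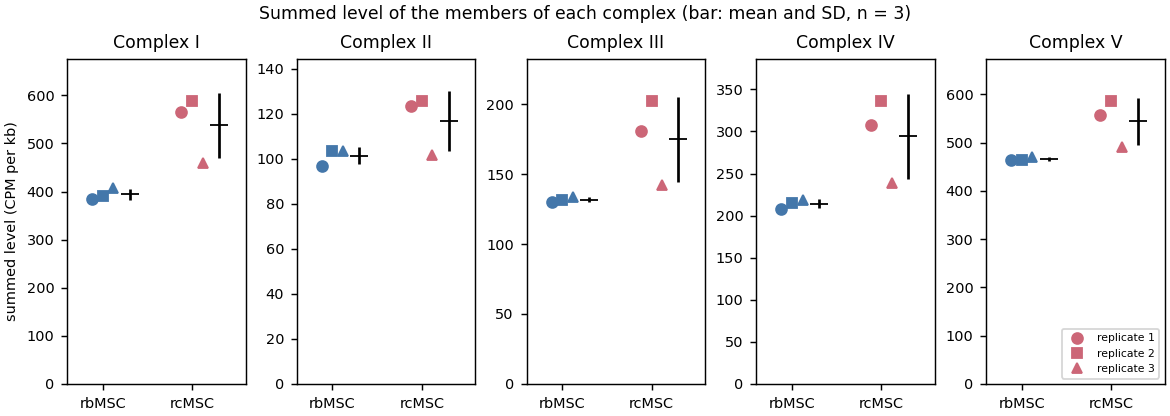
Summed level of the members of each complex in CPM per kb (y axes from 0, with a scale of their own) in each library (points, shaped by replicate), with the mean and SD of each group (black, n = 3). The rcMSC libraries 1 and 2 are the highest in every complex, and rcMSC replicate 3 is near the rbMSC libraries, inside their range in complex II.

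Some subunits have no member row, and a few members could not be measured fully. Of the 30498 rows, 23359 carry a symbol, and none is named Cox7a2, Cox8a, Ndufb9, Uqcr11, Atp5f1c or Atp5f1e. The complex sums and the counts per complex therefore leave these subunits out. The 6 rows not tested were Ndufs6 (1 count in all libraries), Ndufb2 on chromosome 15, Cox7b2 and Cox8c (no count), Uqcrb on chromosome 1 (44 counts) and the plus-strand Atp5mc1 (53 counts). For 6 symbols the table has 2 rows (Uqcrb, Ndufs5, Atp5mk, Atp5mc1, Ndufb2 and Ndufa10l1), and 4 rows have a single exon block. How reads were assigned between such near-identical copies is uncertain. Exons of 23 members overlap those of another row. Summing the rows of 1 symbol left 37 higher and 2 lower.

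Genes of the same pathway were set beside the subunits. Of 37 assembly factors tested, 12 were higher and 0 lower by edgeR (median log2 fold change 0.28, against 0.02 over all genes), and without rcMSC replicate 3 the counts were 19 and 1. Of 7 respiratory chain genes outside the symbol pattern, 2 were higher and 0 lower (median -0.05), while over all genes 22.6% were higher and 23.2% lower. The 2 were Cycs, the cytochrome c that links complexes III and IV (0.76 ± 0.09, adjusted p = 6.4e-05), and Ndufab1, the acyl carrier subunit. Ndufab1 had 0.41 (adjusted p = 0.0446, and up to 0.167 without replicate 1 or 2 of either group). Cyc1, the cytochrome c1 of complex III, had -0.05 (0.827) and, without rcMSC replicate 3, -0.31 (0.00513), which was called lower. Etfa, Etfb, Etfdh and Dhodh were not called. Mitochondrial import, porin and chaperone genes had 7 of 12 higher, 0 lower and a median of 0.26, led by Hspa9 (0.90) and Hspe1 (0.87), chaperones of the matrix. Of the assembly factors and of the import, porin and chaperone genes, 0 were lower at an unadjusted p under 0.05 or by DESeq2. Of 16 genes of the citric acid cycle and pyruvate dehydrogenase, 6 were higher, such as Idh3a (0.54) and Pdha1 (0.45), and 1, Fh (-0.28), was lower. The higher count was 3 without rbMSC replicate 2 or rcMSC replicate 2, 4 without any of the other libraries but rcMSC replicate 3 (8), and Fh was not called when any library except rcMSC replicate 3 was left out (adjusted p up to 0.153). The 13 glycolysis genes went mostly down, with 2 higher (Pkm, 0.39, and Pfkp, 0.43) and 8 lower, such as Pfkl (-0.90) and Eno1 (-0.51).

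Of 14 known regulators of these genes tested, 3 were higher and 4 lower. These counts are near the shares over all genes tested, 22.6% higher and 23.2% lower. Tfam, which maintains and transcribes mitochondrial DNA, was higher (0.50 ± 0.10, adjusted p = 0.00253), as was Gabpa (0.26, 0.00735), whose exons overlap those of Atp5pf. Nrf1, whose motif core was counted above, was lower (-0.46 ± 0.08, adjusted p = 0.000811), and so was the coactivator Ppargc1b (-0.71, 0.0239), although not without replicate 1 or 3 of rbMSC or replicate 1 of rcMSC (up to 0.0904), where the lower count of the list was 2. Ppargc1a had 0.44 CPM in rbMSC and 0.37 CPM in rcMSC and was not called (0.614), nor was Yy1 (0.01, 0.926).

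Other facts of these cultures moved with the comparison. All 10 cell cycle genes listed were lower in rcMSC, with a median of -1.16 and a summed level of 293 to 298 CPM in rbMSC and 120 to 133 CPM in rcMSC. All 10 MSC markers were detected, 4 of them higher and 6 lower, and their sum, mostly collagen I, was 42500 to 42700 CPM in rbMSC and 60300 to 74100 CPM in rcMSC, with Col1a1 the highest in rcMSC replicate 3. Of 14 macrophage markers, 9 were lower and 0 higher (1 at an unadjusted p under 0.05, 0 by DESeq2), with a median of -0.82, none was at 0, and their sum was 763 to 780 CPM in rbMSC and 414 to 491 CPM in rcMSC. In bulk RNA, fewer cells of a type and less RNA per cell cannot be told apart. Endothelial markers summed to 4.63 to 6.26 CPM in rbMSC and 7.65 to 8.44 CPM in rcMSC, and 1 of 3 was higher. Of the brown adipocyte markers 1 was tested and not called, with Ucp1 at 0, and the testis markers had at most 0.08 CPM in sum with Tnp1 at 0. The part of these shifts in the subunit values was not tested.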

How the data were processed

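RNA sequencing counts of 6 libraries were used. Per the labels' protocols, the authors trimmed paired reads of 150 nt (Trim Galore 0.6.7, Trimmomatic 0.39), aligned them by STAR 2.7.9a against mRatBN7.2, and used featureCounts 2.0.1 to count them per gene. The deposited values are raw counts. The deposited table's other measurement is a column headed Length, read here as the summed exon length of each gene in nt. Strand and multimapping settings are not given in the sources used.

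The test was edgeR 4.0.16 (R 4.3.3, quasi-likelihood, TMM factors, filterByExpr, robust dispersions), with Benjamini-Hochberg adjustment over 14836 genes. CPM are TMM-scaled, and 1 count was worth 0.0364 to 0.0468 CPM. Errors are SE for fold changes, computed as the absolute fold change over the root of F, and SD over 3 libraries for levels. The length trend was removed with a lowess curve (span 0.3) per library. The test was run on simulated data. Members and gene lists were chosen with earlier results of these data known. Named members were the largest risers and fallers of each complex, the highest per length, core catalytic subunits and tissue isoforms, and Sdhb, Ndufa4, Cox6b1 and the genes named outside the family were added after their values were seen. A few items are not reported here by name or drawn in the gene-by-gene figures. Alternatives were other scalings, filters, DESeq2 1.42.0, a replicate block and each library left out. Those that removed the length trend together with rcMSC replicate 3, or summed rows of 1 symbol, were added after seeing the data.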

Additional observations from a re-analysis of the deposited data

How the results depend on the processing

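Of the 37 higher members, 23 kept their call when each library in turn was left out, and 14 lost it without 1 or more libraries, none of them without rcMSC replicate 3. The count of higher members ranged from 25 to 58 without 1 library, that of lower members from 1 to 2, the members' median log2 fold change from 0.272 to 0.456 and the genes called from 5336 to 9070. The highest counts came without rcMSC replicate 3, and the single lower member without rbMSC replicate 3 or rcMSC replicate 1. The lower members numbered 0 with a filter of at least 10 counts in every library, which removes Cox4i2 and Ndufa4l2 from the test. They numbered 4 with the length trend removed and 5 when rcMSC replicate 3 was also left out (38 higher, median 0.226). Of these 5, 1 was the plus-strand Atp5mc1 (53 counts), which is not among the 77 rows tested in the full comparison. Other scalings and filters gave 32 to 40 higher members, and DESeq2 gave 36. No called result changed sign, but uncalled values near 0 did: Uqcrfs1 (0.07) was -0.06 and Uqcrc1 (0.02) -0.09 with the length trend removed, and without 1 library Uqcrc1 fell as low as -0.06, Sdha (0.02) as low as -0.02 and Uqcrfs1 to -0.0049. Deviations of same-numbered libraries from the means of their groups had correlations of -0.0275, 0.018 and -0.0518. With 3 libraries per group, and rcMSC replicate 3 standing apart, these values cannot show whether the numbers pair libraries. With the replicate block 34 members were higher, 2 lower and the median was 0.329. In that fit 6297 genes were called and Ndufs1 lost its call (adjusted p = 0.0921). Low counts limit Cox4i2, Ndufa4l2 and Atp5me. The cause of these differences was not tested.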
